A study of Glycine max with 4 samples.

Results

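Starch, sucrose and trehalose metabolism was followed in the first trifoliate leaves of soybean (Glycine max cv. Williams 82) through 126 genes of the 39505 loci detected. These are the single-gene loci whose deposited description names a starch, ADP-glucose, amylase, glucan phosphorylase, sucrose synthase, sucrose phosphate, invertase, UDP-glucose pyrophosphorylase, trehalose or trehalase function. A further 4 loci with such words span several annotated genes and were left out. Seedlings grown for 18 days in hydroponics with 0.5 mM KH2PO4 were moved for 24 h to the same Pi-sufficient solution (Pi-sufficient leaves, PSL) or to a Pi-deprived one with 0 mM KH2PO4 (Pi-deprived leaves, PDL). In the Pi-deprived solution K2SO4 took the place of KH2PO4, so that Pi and sulfate supply cannot be told apart. Each group has 2 libraries (PDL-1, PDL-2, PSL-1 and PSL-2), each made from leaves of 3 plants of this cultivar. Because whole leaves were sampled, fewer cells of a type and less RNA per cell cannot be told apart.

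In a leaf, triose phosphate made by photosynthesis is either kept in the chloroplast and built into starch or exported against Pi and built into sucrose in the cytosol. Starch is made from ADP-glucose by starch synthases and branching enzymes and is broken down at night mainly by beta-amylases, with maltose as the main product. Sucrose is made by sucrose phosphate synthase and sucrose phosphatase and is cleaved by invertases or sucrose synthase, while trehalose-6-phosphate is a signal that follows the sucrose level. Because the first enzyme of starch synthesis, ADP-glucose pyrophosphorylase, is inhibited by Pi and activated by 3-phosphoglycerate, leaf starch is a classical subject of work on Pi nutrition.

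None of these genes passed the thresholds after 24 h without Pi. Of the 126 genes, 104 had a mean level of at least 0.3 FPKM (fragments scaled to transcript length and to the number of mapped fragments) and were tested with limma on log2(FPKM + 0.1). A locus was called where its log2 fold change was past 1 or −1 and its unadjusted p did not exceed 0.05. The calls were 0 higher and 0 lower among the 104 genes, where 1.14% of all 32686 loci tested were called higher in PDL, 0.887% lower and 2.03% in either direction. By that p alone 8 genes stood out (7.69%, against 8.93% of all loci), 5 of them with a positive and 3 with a negative fold change, where all loci gave 4.64% and 4.29%. Their number fell to 3 without PSL-1, 2 without PDL-1, 3 without PDL-2 and 3 with the replicate block. The smallest limma adjusted p among the genes was 0.471. With 2 libraries a group, the smallest p of an exact permutation test is 0.333.

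**Figure D1:**
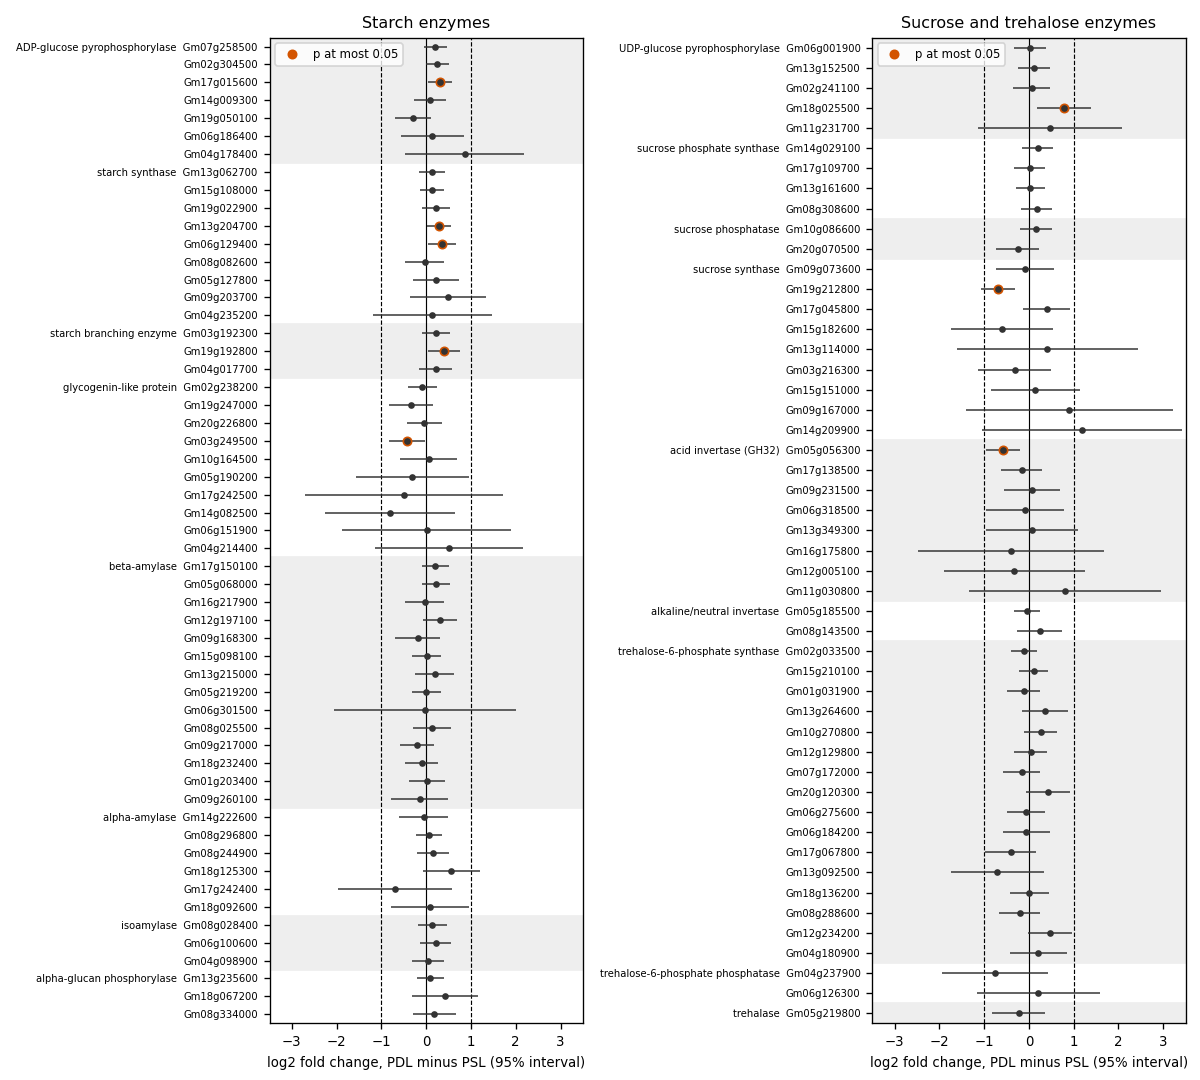
Log2 fold change of PDL over PSL for the 104 genes tested, on log2(FPKM + 0.1), with the 95% interval from limma as bars, grouped by enzyme class. Dashed lines mark −1 and 1, orange points mark the 8 genes whose unadjusted p did not exceed 0.05, and the single point outside the dashed lines is Gm14g209900, a sucrose synthase 6 gene under 1 FPKM.

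The abundant genes were measured more closely than the rare ones. The 95% interval of the log2 fold change lay wholly between −1 and 1 for 76 of the 104 genes tested and for 43 of the 46 genes with a mean of at least 10 FPKM. The 3 abundant exceptions were Gm18g067200, Gm06g301500 and Gm19g212800, with intervals of −0.31 to 1.15, −2.05 to 2.00 and −1.07 to −0.31. Among the 18 tested genes under 1 FPKM only 1 interval stayed within these limits, and the median SE was 0.56 against 0.13 for the genes of at least 10 FPKM.

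Mean levels ranged from 0.00343 to 301 FPKM between genes, and a few genes carried most of the sum. FPKM is scaled to transcript length, so that levels can be set beside each other between genes. A mean over the libraries of at least 100 FPKM was reached by 6 genes, 40 lay from 10 to 100, 40 from 1 to 10 and 40 under 1. The 10 most abundant genes held 50.6% of the summed FPKM of all 126. The genes lie on all 20 chromosomes, with 11 each on chromosomes 6, 8 and 13. KEGG's starch and sucrose pathway is given in the deposited table for 80 of them, including all 18 trehalose-6-phosphate synthase and all 12 sucrose synthase genes but none of the 12 glycogenin-like genes. An FPKM of 0 was listed in at least 1 library for 11 genes, the most abundant of which had a mean of 0.189 FPKM.

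**Figure D2:**
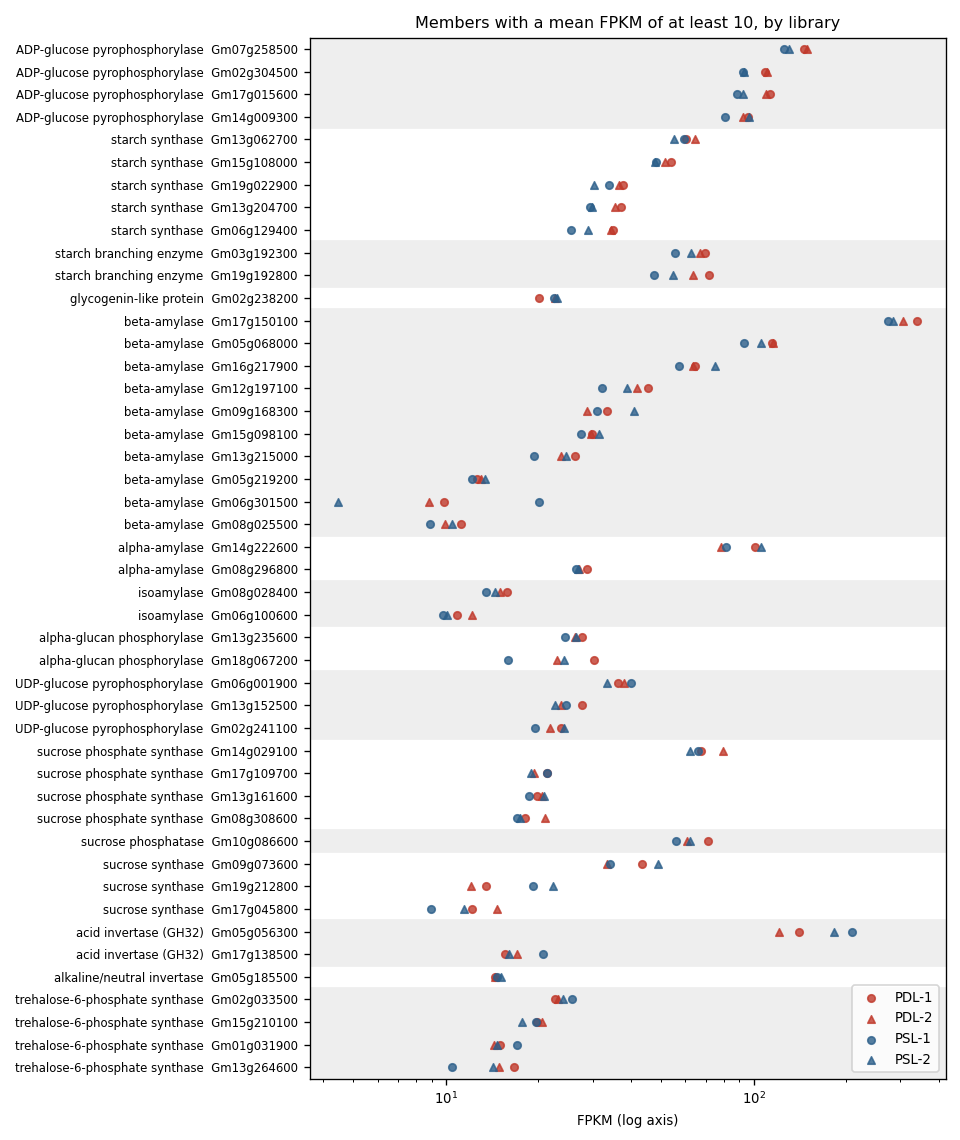
FPKM in each library (log axis) of the 46 genes with a mean of at least 10 FPKM, with a row per gene, red for PDL and blue for PSL, circles for replicate 1 and triangles for replicate 2. The chloroplast beta-amylase gene Gm17g150100 lies furthest to the right, and the acid invertase gene Gm05g056300 shows both PDL points left of both PSL points.

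Both PDL libraries lay above both PSL libraries for 37 of the 104 genes tested (35.6%) and below them for 15 (14.4%), where the same held for 20.2% and 21.1% of all loci tested. In either direction the groups did not overlap for 52 of the 104 genes (41.3% of all loci), and 66 fold changes were positive (63.5%, against 48.6%). Among genes of at least 10 FPKM these counts were 21 and 4 of 46, against 23.9% and 22.3% of the 12600 loci of that level. The median log2 fold change of the 104 genes was 0.07, against −0.01 for all loci. The genes of starch synthesis made up much of the first group, with 14 of 19 tested. Genes of photosynthesis showed the same order without passing the thresholds: of a list of 87 genes for photosystem subunits, light-harvesting proteins, Rubisco small subunit and Rubisco activase, 84 were tested, 74 were above PSL in both PDL libraries and 0 below. This list summed to 273659 and 273361 FPKM in PDL against 215079 and 236969 in PSL, with a median log2 fold change of 0.28 and 0 calls. Of the 87 genes, 4 were listed at 0 in at least 1 library and 3 had a mean under 0.3 FPKM. The part of this list in the values of the starch genes was not tested.

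Starch begins with ADP-glucose pyrophosphorylase, an enzyme of large and small subunits that turns glucose-1-phosphate and ATP into ADP-glucose. The large subunit gene Gm07g258500 (Gmax2.0 chromosome 7, bases 43425054 to 43431818) was the most abundant, with 146 and 149 FPKM in PDL against 126 and 130 in PSL. Its log2 fold change was 0.20 (standard error, SE, 0.10, limma adjusted p = 0.618). The second large subunit gene, Gm17g015600, had 113 and 110 in PDL against 88.3 and 92.5 in PSL, with a log2 fold change of 0.30 (SE 0.10, limma adjusted p = 0.545). The small subunit gene Gm02g304500 had 109 and 111 in PDL against 92.6 and 93.2 in PSL, while the other one, Gm14g009300, had 96.0 and 92.4 in PDL against 80.6 and 96.9 in PSL. Groups thus did not overlap for 3 of these 4 genes, where 41.3% of all loci did not overlap in either direction. All 4 intervals lay below a log2 fold change of 1. Summed large over summed small subunit FPKM was 1.26 and 1.27 in PDL against 1.24 and 1.17 in PSL. The other 3 genes are described as members of the ADP-glucose pyrophosphorylase family without a subunit. These words do not say whether they serve starch, and KEGG's starch and sucrose pathway is not given for them. They are counted with starch synthesis throughout. Of these, Gm19g050100 had 7.79 and 6.47 FPKM in PDL against 8.58 and 8.88 in PSL, and Gm04g178400, with the largest fold change of the class, had 0.589 and 0.947 in PDL against 0.351 and 0.387 in PSL (log2 fold change 0.86, SE 0.49, limma adjusted p = 0.664).

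Starch synthases add glucose from ADP-glucose to a growing glucan chain. The starch synthase 2 gene Gm13g062700 led the class with 60.2 and 64.4 FPKM in PDL against 59.3 and 55.0 in PSL, with a log2 fold change of 0.13 (SE 0.11, limma adjusted p = 0.739). Its relative Gm19g022900 had 37.6 and 36.6 in PDL against 33.9 and 30.2 in PSL. For the starch synthase 3 genes the values were 53.8 and 51.6 in PDL against 48.2 and 47.9 in PSL for Gm15g108000, and 37.1 and 35.5 in PDL against 29.5 and 29.8 in PSL for Gm13g204700. Gm06g129400, described as a glycogen/starch synthase of the ADP-glucose type, had 34.9 and 34.5 in PDL against 25.5 and 28.9 in PSL, with a log2 fold change of 0.35 (SE 0.12, limma adjusted p = 0.545). In all 5 genes both PDL libraries lay above both PSL libraries, by a log2 difference of 0.13 to 0.35. Over the 9 starch synthase genes tested this order held for 7, against 20.2% of all loci. Starch synthase 4, which in Arabidopsis starts the starch granule, was rarer: its 3 genes had means of 1.14 to 4.72 FPKM. The rarest of them, Gm09g203700, had the largest fold change of the class, with 1.36 and 1.32 in PDL against 1.10 and 0.783 in PSL (log2 fold change 0.48, SE 0.31, limma adjusted p = 0.693).

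Branching enzymes introduce the branch points of amylopectin. The starch branching enzyme 2.2 gene Gm03g192300 had 69.5 and 66.8 FPKM in PDL against 55.4 and 62.7 in PSL, with a log2 fold change of 0.21 (SE 0.11, limma adjusted p = 0.655). Gm19g192800, for branching enzyme 2.1, had 71.5 and 63.6 in PDL against 47.5 and 54.9 in PSL, with a log2 fold change of 0.40 (SE 0.13, limma adjusted p = 0.545). All 3 branching enzyme genes tested were above PSL in both PDL libraries (20.2% of all loci), and the other one lay under 0.3 FPKM. Summed over ADP-glucose pyrophosphorylase, starch synthases and branching enzymes, the level was 856 and 843 FPKM in PDL against 713 and 749 in PSL. The PDL mean of these sums was 1.16 times the PSL mean, beside 1.21 times for the photosynthesis list. As a share of all FPKM in a library, the sum made up 0.0441% and 0.0460% in PDL against 0.0429% and 0.0373% in PSL.

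**Figure D3:**
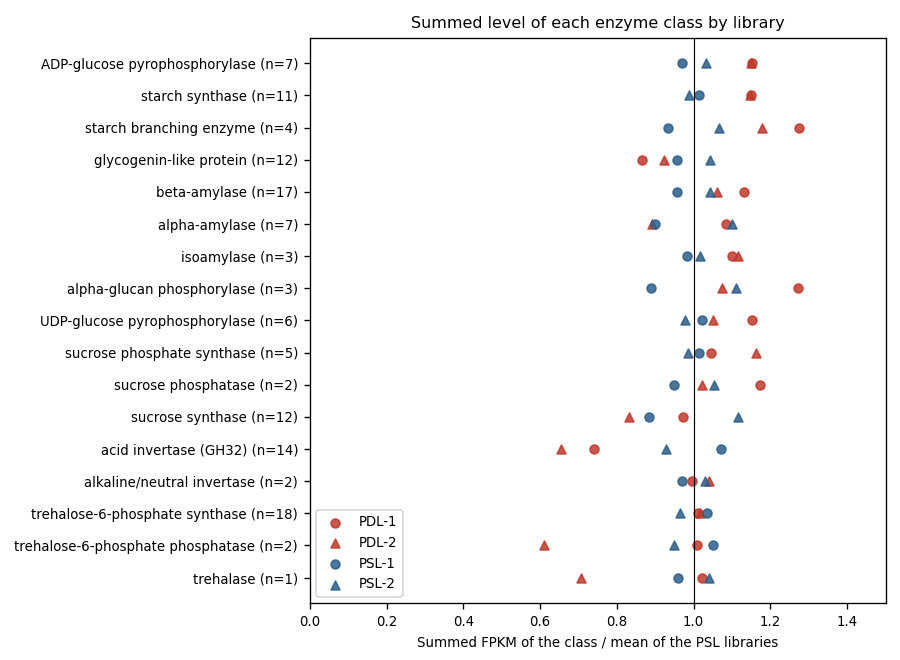
Summed FPKM of each enzyme class in each library, divided by the mean of the PSL libraries, with the number of genes per class in brackets, red for PDL and blue for PSL, circles for replicate 1 and triangles for replicate 2. Both PDL libraries lie left of both PSL libraries for the acid invertases, with sums of 164 and 145 FPKM in PDL against 237 and 206 in PSL, and the starch synthesis classes lie right of the line in both PDL libraries.

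The 12 genes described as plant glycogenin-like starch initiation proteins take their name from glycogenin, the primer of animal glycogen. In Arabidopsis, however, several proteins of this family are glucuronosyltransferases, those of type 1 and 3 acting on xylan of the wall and that of type 6 on sphingolipids. Gm02g238200 (type 2) was the most abundant, with 20.1 and 22.6 FPKM in PDL against 22.5 and 22.9 in PSL, with a log2 fold change of −0.09 (SE 0.12, limma adjusted p = 0.827). Gm03g249500 (type 6) had 3.70 and 4.04 in PDL against 5.45 and 5.05 in PSL, with a log2 fold change of −0.43 (SE 0.15, limma adjusted p = 0.550). Gm14g082500 (type 3) had the largest fold change, −0.80 (SE 0.54), at 0.446 and 0.302 in PDL against 0.539 and 0.941 in PSL (limma adjusted p = 0.703). Of the 10 genes tested in this class, 3 had a positive and 7 a negative fold change, and 0 were above PSL in both PDL libraries. Over all loci tested 48.6% of the fold changes were positive and 20.2% of loci lay above. In this class 5 of the 10 intervals reached past −1 or 1. For the enzymes of starch synthesis 17 of 19 fold changes were positive. The difference between the classes was not tested.

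Beta-amylases cut maltose units from the ends of glucan chains and lead starch breakdown in Arabidopsis leaves. Gm17g150100, described as chloroplast beta-amylase (Gmax2.0 chromosome 17, bases 12439226 to 12442443), was the most abundant of the 126 genes. It had 339 and 305 FPKM in PDL against 273 and 285 in PSL, with a log2 fold change of 0.21 (SE 0.11, interval −0.10 to 0.51, limma adjusted p = 0.654). A second chloroplast beta-amylase gene, Gm05g068000, had 115 and 116 in PDL against 93.2 and 106 in PSL. Both kept the order of PDL above PSL without overlap. The beta-amylase 1 gene Gm16g217900 overlapped, at 64.5 and 63.6 in PDL against 57.4 and 75.0 in PSL. Of the 14 beta-amylase genes tested, 3 lay above and 2 below (20.2% and 21.1% of all loci). Gm12g197100 (beta-amylase 6) had the largest fold change of the class, with 45.4 and 41.7 in PDL against 32.1 and 38.8 in PSL (log2 fold change 0.30, SE 0.14, limma adjusted p = 0.614). The 5 chloroplast beta-amylase genes ranged from a mean of 0.271 to 301 FPKM, and the most abundant held 70.6% of their sum. The beta-amylase 7 genes, whose Arabidopsis relative carries a DNA-binding domain beside the amylase domain, were low, with means of 2.18 and 6.13 FPKM.

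Gm06g301500, for beta-amylase 5, is an abundant gene that the replicates do not settle. It had 9.87 and 8.83 FPKM in PDL, but 20.1 in PSL-1 and 4.48 in PSL-2, so that the PDL values lay between those of PSL. Its log2 fold change was −0.03 (SE 0.75, limma adjusted p = 0.993). Without PSL-1 it became 1.04 and passed the thresholds as higher in PDL, and without PSL-2 it became −1.10 and passed as lower.

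Alpha-amylases cut inside the glucan chain and isoamylases remove branches. The alpha-amylase-like 2 gene Gm14g222600 had 101 and 78.5 FPKM in PDL against 81.2 and 106 in PSL, with a log2 fold change of −0.06 (SE 0.20, limma adjusted p = 0.945). Of the alpha-amylase-like 3 genes, whose Arabidopsis relative is the plastid enzyme, Gm08g296800 had 28.7 and 27.1 in PDL against 26.4 and 26.9 in PSL, and Gm18g125300 had 3.65 and 2.66 in PDL against 1.98 and 2.19 in PSL (log2 fold change 0.56, SE 0.23, limma adjusted p = 0.585). All 3 tested alpha-amylase-like 3 genes were above PSL in both PDL libraries, where 20.2% of all loci were. Gm17g242400, an alpha-amylase-like gene with 1.07 and 0.711 in PDL against 1.02 and 2.11 in PSL, had a log2 fold change of −0.69 (SE 0.47, limma adjusted p = 0.706). It lies 4304 bases before the glycogenin-like gene Gm17g242500 on chromosome 17.

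The isoamylase genes differed little between the groups, with 15.8 and 15.0 FPKM in PDL against 13.5 and 14.5 in PSL for Gm08g028400 (isoamylase 1). Gm06g100600 (isoamylase 3) had 10.9 and 12.2 in PDL against 9.77 and 10.1 in PSL, with a log2 fold change of 0.21 (SE 0.13, limma adjusted p = 0.670). Alpha-glucan phosphorylase releases glucose-1-phosphate from glucans with the use of Pi, and the type 2 enzyme of Arabidopsis is cytosolic. Its gene Gm13g235600 had 27.8 and 26.2 in PDL against 24.4 and 26.4 in PSL (log2 fold change 0.09, SE 0.11, limma adjusted p = 0.819). Gm18g067200 had 30.2 and 22.9 in PDL against 15.9 and 24.2 in PSL (log2 fold change 0.42, SE 0.27, limma adjusted p = 0.691), and the groups overlapped for all 3 genes of this class. Summed over the amylases, isoamylases and phosphorylases, the level was 946 and 867 FPKM in PDL against 790 and 883 in PSL, sums that overlap between the groups. The sum takes whole classes, the phosphorylases of the cytosolic type included. It was not split by compartment or by the step that a gene serves, so it is not a measure of starch breakdown in the chloroplast alone. The ratio of the summed starch synthesis genes to this sum was 0.905 and 0.972 in PDL against 0.902 and 0.848 in PSL. Both sums leave out the debranching, disproportionating and glucan-phosphorylating enzymes among the neighbouring genes.

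Sucrose synthesis draws on UDP-glucose, made by UDP-glucose pyrophosphorylase. The most abundant gene, Gm06g001900 (type 1), had 36.3 and 37.8 FPKM in PDL against 39.9 and 33.5 in PSL, with a log2 fold change of 0.02 (SE 0.13, limma adjusted p = 0.972). The type 3 enzyme is a plastid protein that in Arabidopsis supplies UDP-glucose for sulfolipid synthesis. Its gene Gm18g025500 (Gmax2.0 chromosome 18, bases 1879332 to 1887729) had 14.9 and 10.2 in PDL against 7.40 and 6.82 in PSL, so that PDL was above PSL without overlap. The log2 fold change was 0.78 (SE 0.22, interval 0.18 to 1.39, limma adjusted p = 0.526), the largest of the genes with a mean over 3 FPKM, and did not reach 1. Without PDL-2 it was 1.06, a fit in which PDL-1, the higher of the PDL libraries, stands alone for its group.

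Sucrose phosphate synthase makes sucrose-6-phosphate from UDP-glucose and fructose-6-phosphate, and sucrose phosphatase then releases sucrose. Gm14g029100 (sucrose phosphate synthase 3F) had 67.4 and 79.8 FPKM in PDL against 65.8 and 62.2 in PSL, with a log2 fold change of 0.20 (SE 0.13, limma adjusted p = 0.699). Its relative Gm08g308600 had 18.1 and 21.0 in PDL against 17.1 and 17.4 in PSL. The 1F genes overlapped between the groups, with 21.4 and 19.3 in PDL against 21.4 and 18.9 in PSL for Gm17g109700 and 19.8 and 20.6 in PDL against 18.6 and 20.8 in PSL for Gm13g161600. The sucrose phosphatase gene Gm10g086600 had 71.0 and 60.7 in PDL against 55.9 and 62.2 in PSL (log2 fold change 0.15, SE 0.13, limma adjusted p = 0.740). The second one, Gm20g070500, had 3.23 and 3.94 in PDL against 4.11 and 4.40 in PSL (log2 fold change −0.25, SE 0.18, limma adjusted p = 0.711). All 6 intervals of sucrose synthesis lay between −1 and 1.

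Invertases split sucrose into glucose and fructose, the acid forms in the vacuole or the wall and the neutral ones in the cytosol and organelles. The deposited words name the acid invertases only as glycosyl hydrolases family 32 and so do not say which compartment a gene serves. Gm05g056300 (Gmax2.0 chromosome 5, bases 5148940 to 5153856) held 86.8% of the summed level of the 14 genes. It had 141 and 121 FPKM in PDL against 209 and 182 in PSL, with no overlap. Its log2 fold change was −0.58 (SE 0.14, interval −0.96 to −0.20, limma adjusted p = 0.500), or 0.669 times the PSL level on this scale, and did not reach −1. The next gene, Gm17g138500, had 15.6 and 17.1 in PDL against 20.7 and 16.1 in PSL. Gm11g030800, at 0.543 and 0.279 in PDL against 0.271 and 0.115 in PSL, had the largest fold change of the class, 0.81 (SE 0.79, limma adjusted p = 0.767). Another 6 of the 14 genes lay under 0.3 FPKM, among them the neighbours Gm08g191900 and Gm08g192000, which are 3106 bases apart on chromosome 8.

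The alkaline/neutral invertase gene Gm05g185500 was nearly constant, with 14.5 and 14.5 FPKM in PDL against 14.7 and 15.1 in PSL (log2 fold change −0.04, SE 0.11, interval −0.33 to 0.26, limma adjusted p = 0.934). Gm08g143500 had 4.20 and 4.98 in PDL against 3.54 and 4.22 in PSL (log2 fold change 0.24, SE 0.18, limma adjusted p = 0.720).

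Sucrose synthase cleaves sucrose with UDP to UDP-glucose and fructose and is known from sink tissues and phloem. Gm09g073600 (sucrose synthase 4) was the most abundant, with 43.5 and 33.5 FPKM in PDL against 34.2 and 48.8 in PSL, with a log2 fold change of −0.10 (SE 0.24, limma adjusted p = 0.918). Gm19g212800 (sucrose synthase 3, Gmax2.0 chromosome 19, bases 46633941 to 46639805) had 13.5 and 12.1 in PDL against 19.2 and 22.3 in PSL. Its log2 fold change of −0.69 (SE 0.14) had the smallest limma adjusted p of the 104 genes, 0.471, and missed the threshold of −1. Gm17g045800, another sucrose synthase 4 gene, lay the other way, with 12.2 and 14.7 in PDL against 8.93 and 11.5 in PSL (log2 fold change 0.40, SE 0.19, limma adjusted p = 0.623).

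The other sucrose synthase 4 genes varied between replicates, with 3.67 and 1.96 in PDL against 3.18 and 5.37 in PSL for Gm15g182600 and 1.90 and 3.09 in PDL against 3.68 and 0.852 in PSL for Gm13g114000. The 5 sucrose synthase 6 genes, a type that in Arabidopsis belongs to sieve elements, had means of 0.0790 to 0.423 FPKM. Gm14g209900 had the largest fold change of all 104 genes, 1.18, with a SE of 0.82 (limma adjusted p = 0.711). Its values were 0.852 and 0.268 in PDL against 0.200 and 0.127 in PSL, and those of Gm09g167000 were 0.980 and 0.242 in PDL against 0.308 and 0.161 in PSL, so that PDL-1 stood highest in both. A list of 32 phloem genes, by description, had summed levels of 878 and 782 FPKM in PDL against 883 and 1070 in PSL. Of its 30 tested genes 0 were called higher and 1 lower (1.14% and 0.887% of all loci). Both PDL libraries lay above both PSL libraries for 4 of them and below for 7 (20.2% and 21.1% of all loci). Of the 32 genes, 4 were at 0 in at least 1 library and 2 had a mean under 0.3 FPKM. The part of this list in the sucrose synthase values was not tested. Over sucrose synthase and both kinds of invertase, cleavage, without the other invertases among the neighbouring genes, summed to 263 and 233 FPKM in PDL against 328 and 317 in PSL. The ratio of summed sucrose synthesis to summed cleavage was 0.765 and 0.881 in PDL against 0.557 and 0.587 in PSL, which did not overlap. Gm05g056300 held 57.2% of the summed cleavage.

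Trehalose-6-phosphate is made by trehalose-6-phosphate synthase, removed by its phosphatase, and the trehalose left is split by trehalase. In Arabidopsis the type 1 synthase is the active enzyme, while types 5 to 11 carry both a synthase and a phosphatase domain and are thought to be regulatory. The summed level of the 18 synthase genes was nearly the same in all libraries, with 136 and 136 FPKM in PDL against 139 and 130 in PSL. Gm02g033500 (type 9) was the most abundant, with 22.7 and 23.1 in PDL against 25.7 and 24.1 in PSL, with a log2 fold change of −0.12 (SE 0.11, limma adjusted p = 0.754). The tested genes described as trehalose-6-phosphate synthase without a type number were Gm15g210100, with 19.8 and 20.5 in PDL against 19.7 and 17.7 in PSL, Gm13g264600, with 16.6 and 14.9 in PDL against 10.5 and 14.2 in PSL, and Gm12g234200, with 2.76 and 2.89 in PDL against 2.06 and 1.98 in PSL. All 3 were above PSL in both PDL libraries (20.2% of all loci), the last with a log2 fold change of 0.47 (SE 0.18, limma adjusted p = 0.568). Another 2 tested genes are described as trehalose phosphate synthase, also without a type number. Of these, 1 lay below PSL in both PDL libraries and 1 overlapped.

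Both type 5 genes lay above PSL in both PDL libraries, with 9.32 and 10.0 FPKM in PDL against 7.52 and 8.55 in PSL for Gm10g270800 and 7.08 and 8.85 in PDL against 5.48 and 6.29 in PSL for Gm20g120300. Both type 11 genes lay below. Over the 16 synthase genes tested, 6 lay above and 4 below (20.2% and 21.1% of all loci). Gm17g067800 had 2.88 and 3.12 in PDL against 4.62 and 3.47 in PSL, and Gm13g092500 had 2.28 and 2.40 in PDL against 5.56 and 2.72 in PSL. The log2 fold change of Gm13g092500, the largest of the class, was −0.71 (SE 0.38, limma adjusted p = 0.651). It rests on PSL-1: without PSL-2 it was −1.21 and passed, and without PSL-1 it was −0.20. The phosphatase genes named as such were rare, with means of 0.574 and 0.652 FPKM. Gm04g237900 had 0.542 and 0.382 in PDL against 0.945 and 0.741 in PSL (log2 fold change −0.75, SE 0.44, limma adjusted p = 0.667). The only trehalase gene, Gm05g219800, had 10.3 and 7.12 in PDL against 9.67 and 10.5 in PSL (log2 fold change −0.23, SE 0.22, limma adjusted p = 0.759).

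**Figure D4:**
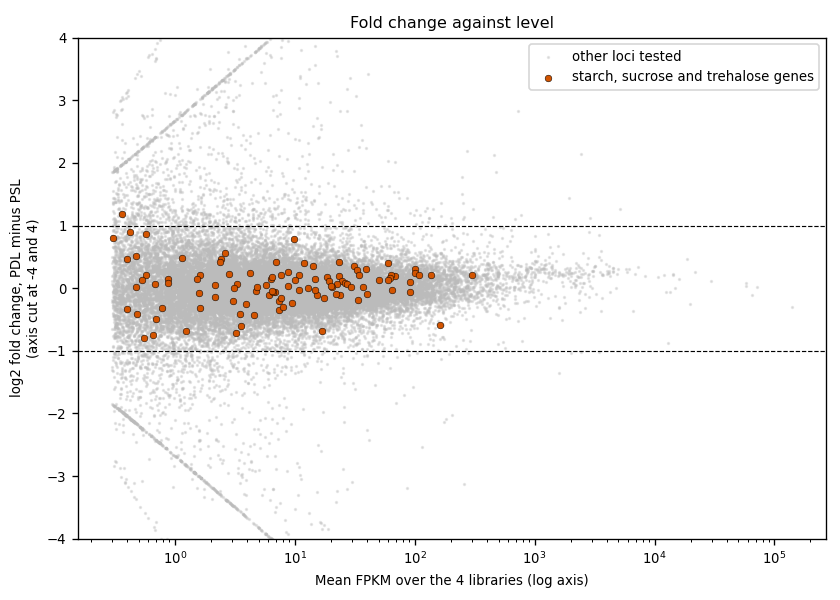
Log2 fold change of PDL over PSL against mean FPKM (log axis) for the loci tested, with the 104 starch, sucrose and trehalose genes in orange, the other loci in grey and dashed lines at −1 and 1. The orange points narrow around 0 as the level rises, with Gm05g056300, at 163 FPKM and −0.58, furthest below 0 among the genes over 100 FPKM, and the vertical axis leaves out the extreme grey loci.

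Of 115 genes for neighbouring steps, taken by words of the description outside the list above, 103 were tested, 4 were higher and 1 was lower in PDL (background 1.14% and 0.887%). Gm19g195400, a cell wall invertase 2 gene, fell, with 1.37 and 0.908 FPKM in PDL against 3.09 and 2.80 in PSL, with a log2 fold change of −1.32 (SE 0.28, limma adjusted p = 0.478). It did not pass without PSL-1 (−1.25) or PSL-2 (−1.39), or with a pseudocount of 1 (−0.89). It was the only one of 8 tested genes for other invertases that passed, and the most abundant of these, Gm10g145600, had 7.13 and 7.27 in PDL against 6.96 and 6.59 in PSL.

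Genes for glucose-6-phosphate/phosphate translocators, which exchange hexose phosphate with Pi across the plastid envelope, included 2 that passed as higher, neither of them under every alternative. Gm13g206700 had 7.99 and 4.54 FPKM in PDL against 2.22 and 3.31 in PSL (log2 fold change 1.12, SE 0.36, limma adjusted p = 0.545) and lost the call without PSL-1 (0.84), PSL-2 (1.40) or PDL-1 (0.72), with a pseudocount of 1 (0.92), without the mean-variance trend and with the replicate block (both 1.12). Gm15g105900 had 1.27 and 1.81 in PDL against 0.631 and 0.320 in PSL (log2 fold change 1.55, SE 0.46, limma adjusted p = 0.527) and lost it without PSL-2 (1.15), PDL-1 (1.78) or PDL-2 (1.31), with a pseudocount of 1 (0.78), with the filter at 1 FPKM and with the replicate block (both 1.55). The most abundant translocator gene, Gm07g201300, is described only as related to these translocators, which does not say which sugar phosphate it carries. It had 950 and 884 in PDL against 751 and 836 in PSL, with a log2 fold change of 0.21 (SE 0.12, limma adjusted p = 0.671).

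Gm09g011100, of the inositol monophosphatase family, to which fructose-1,6-bisphosphatase of sucrose and starch synthesis is related, rose with 52.5 and 39.6 FPKM in PDL against 19.9 and 17.5 in PSL. Its log2 fold change was 1.28 (SE 0.18, limma adjusted p = 0.438), and it passed without each library in turn. The deposited words do not say which phosphatase it is. The most abundant gene of that family, Gm20g166400, had 354 and 332 in PDL against 301 and 342 in PSL. Gm17g251900, for a pfkB-like carbohydrate kinase, the family of fructokinases, rose with 3.48 and 4.80 in PDL against 2.15 and 1.48 in PSL, with a log2 fold change of 1.15 (SE 0.29, limma adjusted p = 0.511), but not without PSL-2 (0.90) or PDL-2 (0.93), or with a pseudocount of 1 (0.87). The most abundant kinase gene was Gm13g344500, with 55.7 and 46.0 in PDL against 55.1 and 60.0 in PSL.

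Other enzymes of the starch route did not pass. Of 14 tested genes for debranching, disproportionating and glucan-phosphorylating enzymes, 7 were above PSL in both PDL libraries and 2 below (20.2% and 21.1% of all loci), and the median log2 fold change was 0.26. The most abundant, Gm10g298000, for a phosphoglucan, water dikinase that marks starch for breakdown, had 43.7 and 37.7 FPKM in PDL against 29.6 and 37.9 in PSL. Gm10g141200, for disproportionating enzyme, had 3.12 and 3.06 in PDL against 1.84 and 1.32 in PSL (log2 fold change 0.95, SE 0.24, limma adjusted p = 0.511). Its log2 fold change was 1.17 without PSL-1, the higher of the PSL libraries. Among genes of hexose phosphate interconversion, the phosphoglucomutase gene Gm10g241000 had 58.8 and 55.6 in PDL against 39.2 and 42.1 in PSL, and Gm08g044100 had 55.3 and 53.8 in PDL against 47.6 and 48.5 in PSL. The SNF1 kinase homolog 10 gene Gm13g060400, whose kinase is inhibited by trehalose-6-phosphate, had 24.4 and 23.6 in PDL against 21.4 and 25.7 in PSL.

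Starch genes follow the day, and the clock list taken here held pseudo-response regulators 5 and 7 and gigantea only. Its 11 loci, in which a gene name occurs more than once, summed to 166 and 165 FPKM in PDL against 154 and 171 in PSL. There were 0 calls among the 11 tested, the median log2 fold change was 0.06, and 3 intervals reached past −1 or 1. The time of day of the harvest is not given in the sources used here, and its part in the values of the starch genes was not tested. The median over the tested loci was 6.07 to 6.10 FPKM in the 4 libraries, while the summed FPKM of all loci was lowest in PSL-1, at 1661720, and highest in PSL-2, at 2007430.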

How the data were processed

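RNA-seq of 4 leaf libraries was analysed, 2 PDL and 2 PSL, grouped by the sample titles. According to the labels and the study's methods, reads were filtered with the FASTX-toolkit and FastQC, mapped with TopHat to Gmax2.0 indexed by Bowtie2, assembled with Cufflinks and compared with Cuffdiff, with versions not given in the sources used here. The deposited table gives FPKM per locus and library, normalized by the authors to transcript length and mapped fragments. It holds no read counts, so counting error is not given. TopHat allowed several alignments per read, so near-identical soybean paralogs may share reads. The table also holds the authors' pooled group values, fold changes, test statistics, p-values and q-values, which were not used.

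Loci with a mean of at least 0.3 FPKM (32686 of 39505) entered limma 3.58.1 (R 4.3.3; lmFit, eBayes with trend, no covariate) as log2(FPKM + 0.1), with Benjamini-Hochberg adjustment over all of them. The fold change understates the change of low loci. A log2 fold change past 1 or −1 with p at most 0.05 was called, as in the study. The fit was also run on simulated data, with log2 fold changes set larger than any measured for the members. That run therefore does not tell how well smaller changes are recovered. Figures used Python 3.11.15 with pandas 2.3.3 and matplotlib 3.10.9.

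Members and lists are word patterns on the descriptions, chosen with earlier results of these data known. Named genes are the members and neighbouring genes past the thresholds, and in each class the most abundant member, that with the largest fold change, and the most abundant neighbouring gene of each list. No member listed at 0 in a library had a mean of 5 FPKM, which would also have named it. The others named were chosen after their values were seen: Gm02g304500, Gm17g015600, Gm14g009300, Gm19g050100, Gm15g108000, Gm19g022900, Gm13g204700, Gm06g129400, Gm05g068000, Gm16g217900, Gm06g301500, Gm08g296800, Gm18g125300, Gm19g212800, Gm17g045800, Gm15g182600, Gm13g114000, Gm09g167000, Gm17g138500, Gm13g161600, Gm17g109700, Gm08g308600, Gm15g210100, Gm13g264600, Gm12g234200, Gm10g270800, Gm20g120300, Gm17g067800, Gm03g249500, Gm10g141200 and Gm10g241000. Isoamylases, the glycogenin-like genes and phosphofructokinases were set apart within the word patterns after the descriptions were seen. A RefSeq table of 59048 genes matched 0 members and was not used, and no sequence is shown. Coordinates are those of the table.

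Alternatives were pseudocounts of 1 and 0.01, a filter at 1 FPKM and none, no trend, quantile normalization, median centring, a replicate block, only loci above 0 in all libraries, and leaving out each library.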

Additional observations from a re-analysis of the deposited data

How the results depend on the processing

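No gene of starch, sucrose and trehalose metabolism passed under any of the 9 alternatives that kept all libraries. Leaving out a library gave 0 to 1 genes higher and 0 to 2 lower: Gm18g025500 without PDL-2 (1.06), Gm06g301500 without PSL-1 (1.04), and Gm06g301500 (−1.10) and Gm13g092500 (−1.21) without PSL-2. There the lone library of a group is assumed to vary like the other group. Over all loci, 222 were higher and 143 lower with a pseudocount of 1, 586 and 455 without a filter, and 501 to 792 and 470 to 683 when a library was left out, against 373 and 290. Of the neighbouring pathway genes, 1 was higher and 0 lower with a pseudocount of 1, 2 were lower with a pseudocount of 0.01, 2 were higher with the replicate block, and 1 to 4 were higher and 0 to 1 lower when a library was left out. The marker and leaf-state lists, with 3 higher and 4 lower, had 1 and 0 with a pseudocount of 1, 5 higher without a filter and without the trend, 6 higher with loci above 0 in all 4 libraries, 2 lower with a filter at 1 FPKM, and 5 to 12 higher and 1 to 7 lower when a library was left out. In the main fit 225 genes of these lists were tested, where 1.14% of all loci were called higher and 0.887% lower. The lists not described above were of guard cell, xylem and secondary wall, dividing cell, root, and epidermis and cuticle genes. Higher calls were 2 of 4 tested guard cell genes and 1 of 25 xylem and secondary wall genes. Lower calls were 2 of 12 dividing cell, 1 of 17 root and 1 of 30 phloem genes. The cause of the shifts between settings was not tested. The replicate numbers share only a number: deviations of PDL-1 and PSL-1 correlated across loci at r = −0.0788, and the block brought the 8 genes with an unadjusted p up to 0.05 to 3.

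The sign of the log2 fold change was followed only for the named members and neighbouring genes, so that other genes may turn as well. It turned when a library was left out for Gm06g001900 (−0.10 to 0.15), Gm14g222600 (−0.25 to 0.13), Gm09g073600 (−0.35 to 0.16), Gm05g219800 (−0.50 to 0.032), Gm13g060400 (−0.10 to 0.16), Gm14g009300 (−0.04 to 0.22), Gm16g217900 (−0.23 to 0.16), Gm06g301500 (−1.10 to 1.04), Gm13g114000 (−0.58 to 1.41), Gm17g138500 (−0.34 to 0.019), Gm13g161600 (−0.047 to 0.12) and Gm17g109700 (−0.076 to 0.10). With quantile normalization it turned for Gm20g166400, to −0.032. With 2 libraries a group and no read counts, 2-fold changes were not resolved for most genes under 1 FPKM. There 17 of the 18 intervals tested reached past −1 or 1, as did 28 of all 104. Larger differences were not resolved either, such as the 2.27-fold one of Gm14g209900, with an interval of −1.06 to 3.42.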

Other observations

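Asparagine synthase genes, which are known to respond to sugar shortage and darkness, differed among themselves. Gm14g195000 had 4360 and 3670 FPKM in PDL against 2430 and 3340 in PSL, Gm02g228100 had 1910 and 1400 in PDL against 769 and 1050 in PSL, and Gm11g171400 had 663 and 766 in PDL against 419 and 318 in PSL. All of these were above PSL in both PDL libraries without passing the thresholds. Gm18g061100 lay the other way, with 18.2 and 18.2 in PDL against 25.1 and 24.6 in PSL. So did Gm20g025400, with 6.93 and 5.53 in PDL against 7.01 and 7.63 in PSL. Gm11g240200 was also below, with 1.08 and 1.07 in PDL against 1.83 and 1.48 in PSL. For the asparagine synthase genes Gm18g017200 and Gm11g170300 the groups overlapped. Over the 20 tested genes of the list of sugar starvation, darkness and senescence, 0 passed and the median log2 fold change was −0.24. Of these genes, 5 were above PSL in both PDL libraries and 9 below (20.2% and 21.1% of all loci). The genes named here were picked with their values known.

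The 4 loci that span several genes and carry the same words were not counted above. The locus of Gm02g086200 and Gm02g086300, with a trehalose-phosphatase family description, had 7.75 and 9.28 FPKM in PDL against 11.2 and 26.5 in PSL, with PSL-2 far above the rest. The locus of Gm14g210700, Gm14g210800 and Gm14g210900, where a UDP-glucose pyrophosphorylase 2 description stands beside a ribosomal protein, had 82.3 and 68.1 in PDL against 56.1 and 60.1 in PSL. A beta-amylase 2 locus, Gm01g151800 with Gm01g151900, had 1.39 and 1.24 in PDL against 1.22 and 0.926 in PSL. The fourth, Gm15g016000 with Gm15g016100, named for alpha-amylase-like 3 and a dehydrogenase, had 30.3 and 31.9 in PDL against 30.4 and 28.9 in PSL. None of the 4 passed the thresholds, and the share of each gene in its locus is not given in the table.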
